A study of Mus musculus with 24 samples.

Results

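The comparison followed the transcriptome of the mouse hippocampal CA1 area from 12 h to 24 h after status epilepticus (SE), with 3 libraries at SE 24 h set against 3 at SE 12 h, out of 24 libraries in 8 groups. All 18153 genes that passed the filter on low counts, of 18647 in the deposited table, were members. Each library came from the microdissected CA1 of a C57Bl/6N mouse at least 60 days old. Mice received 1 mg/kg scopolamine methyl nitrate 20 min before 335 mg/kg pilocarpine, a muscarinic agonist, and 4 mg/kg diazepam was given 40 min after the onset of SE. Only mice that developed SE were used, so the response of mice that received pilocarpine without SE was not measured here. Ctr mice received saline in place of pilocarpine and formed the groups Ctr 12 h, Ctr 36 h and Ctr 72 h, with 3 libraries each, and the other SE groups were SE 6 h, SE 36 h and SE 72 h. No Ctr group was collected at 24 h, and the time of day of collection is not given in the sources used here. Since 12 h and 24 h after SE lie 12 h apart in the daily light-dark cycle, effects of the hour and of the time since SE cannot be told apart.

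A prolonged seizure sets off transcription in layers. Neurons first switch on immediate early transcription factors and their secreted and synaptic targets, such as neuropeptides. Endothelial cells, microglia and astrocytes then take on reactive states, in which astrocytes make intermediate filaments and matrix proteins and turn down transporters and junction proteins, and microglia leave their surveying state, make cytokines and later divide. At both 12 h and 24 h, the immediate early and the reactive astrocyte lists used here each summed above every Ctr library. In bulk tissue, fewer cells of a type and less RNA per cell cannot be told apart.

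Total counts ran from 12623517 to 30133731 at SE 12 h and from 9328095 to 22347349 at SE 24 h. The first principal component of the 6 libraries held 33.9% of their variance and separated the groups, from -42.7 to -34.6 at 12 h against 13.7 to 62.9 at 24 h, with SE 24 h replicate 2 nearest to the 12 h libraries. The CA1 pyramidal markers summed to between 892 and 1246 CPM (read counts scaled to the normalised library size) in the 6 libraries and between 1030 and 2081 CPM in the 9 Ctr libraries, and none of 10 was called between 12 and 24 h by edgeR, DESeq2 or limma-voom (0 at an unadjusted p under 0.05). Markers of CA3 and CA2 reached 1545 CPM in SE 12 h replicate 2 against 472 to 878 CPM in the other 5. Most of the 1545 CPM, 1312 CPM, came from Nptx1 alone, which is also on the list of activity-induced effector genes. Markers of the dentate gyrus summed to 201 to 341 CPM in the 6. One library stood apart. SE 12 h replicate 1 held transcripts of peripheral sensory ganglia, whose 12 tested markers summed to 928 CPM there against 17.8 to 74.0 CPM in the other 5 libraries, as did Ctr 72 h replicate 2 with 2429 CPM. All 12 had a negative log2FC, from -3.26 to -1.51, and none was called by these tools (0 at an unadjusted p under 0.05). The numbers of DEGs, in all and by list, are therefore also given without SE 12 h replicate 1 where they changed. This library was also the only one of the 6 whose label number lay outside the range of the others. The part of this tissue in other differences was not tested.

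Between 12 h and 24 h, 578 genes changed, of which 266 were higher and 312 lower at 24 h. A differentially expressed gene (DEG) had a Benjamini-Hochberg adjusted p of at most 0.05 in the edgeR quasi-likelihood test and an absolute log2FC (24 h minus 12 h) of at least 1. The background was 3.18% of the genes tested in either direction, 1.47% higher and 1.72% lower. At the adjusted p alone, 951 genes were higher and 697 lower, and 4474 had an unadjusted p under 0.05. Decreases were the larger, with a median size of 1.79 on the log2 scale over the 312 genes against 1.48 over the 266, and 133 against 64 changed by at least 2. The 3 libraries at 24 h did not overlap the 3 at 12 h in 537 of the 578, and in 23.5% of all genes tested. In 47 DEGs every library of one group held 3 counts or fewer, and the fold changes of these genes depend on the prior count of the fit. By gene type, 224 of the DEGs that rose and 260 of those that fell were protein-coding, and 33 and 36 were long noncoding RNAs. Without SE 12 h replicate 1 there were 672 DEGs (290 higher, 382 lower), of which 461 were among the 578. Without both libraries that held sensory ganglion transcripts there were 806 (347 higher, 459 lower), of which 487 were shared. With only the 6 libraries in the fit, which changes the unwanted factor and the estimate of the spread together, the count was 102 (70 higher, 32 lower), of which 96 were shared, and 186 DEGs (104 higher, 82 lower) were called whichever of the 6 libraries was left out.

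**Figure D1:**
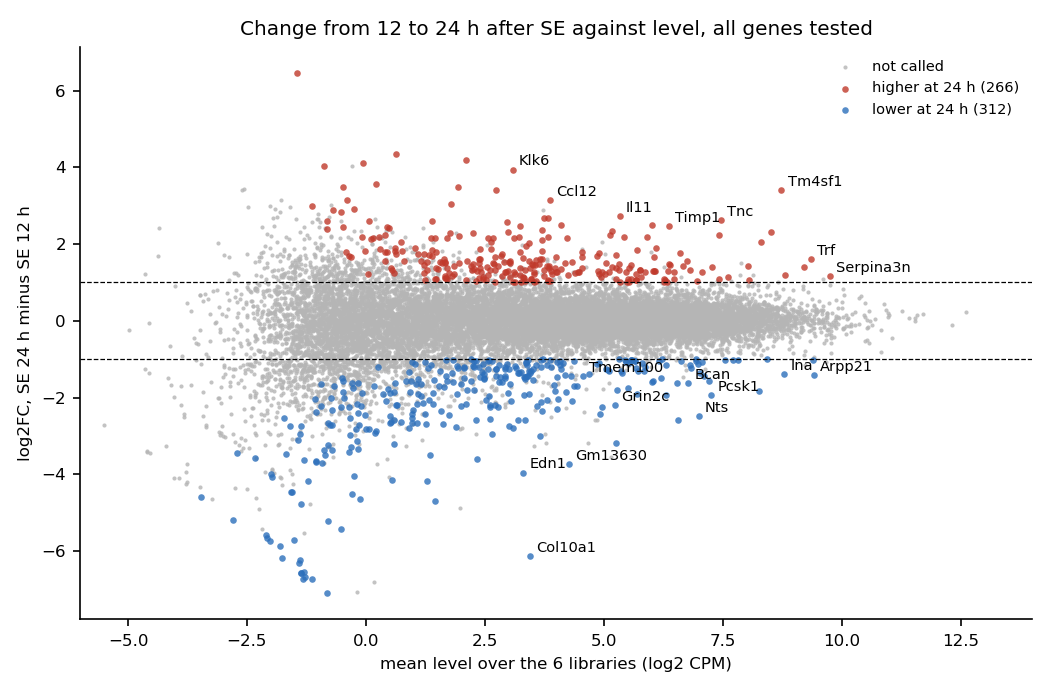
Each point is 1 of 18153 genes, with its mean level over the 6 libraries on the horizontal axis (log2 CPM) and its log2FC, SE 24 h minus SE 12 h, on the vertical axis, and dashed lines mark an absolute log2FC of 1. The 266 genes that rose (red) include Tm4sf1 and Tnc at high levels, and the 312 that fell (blue) reach lower values, with many at low levels.

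Most DEGs had the same direction in libraries that the comparison did not use. From 6 h to 36 h after SE, which shares no library with it, the 266 genes that rose had a median log2FC of 1.12, 80.8% of them were above 0 and 136 (51.1%) were called higher, against a background of 4.29%. Of the 312 genes that fell, 11.5% were above 0, the median was -1.23 and 159 (51.0%) were called lower, against a background of 5.80%. For the DEGs called without SE 12 h replicate 1 these counts were 127 of 290 (43.8%) and 202 of 382 (52.9%). Over all genes tested the median was -0.01. In the saline mice the medians of both sets lay close to that of all genes. From the mean of Ctr 12 h and Ctr 36 h to Ctr 72 h, the closest match in hours of the day, the median log2FC was -0.06 for the genes that rose, -0.14 for those that fell and -0.08 over all genes, of which 1.81% were called. Ctr 72 h was shallow, with total counts from 2663936 to 11680209. Those of Ctr 12 h ran from 10651808 to 27648010 and those of Ctr 36 h from 12619488 to 20063548. Replicate 2 of Ctr 72 h also held the sensory ganglion transcripts, so the saline change is a weak reference for the hour of the day. Both comparisons, of SE 36 h with SE 6 h and of the saline groups, were chosen after the data were seen.

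**Figure D2:**
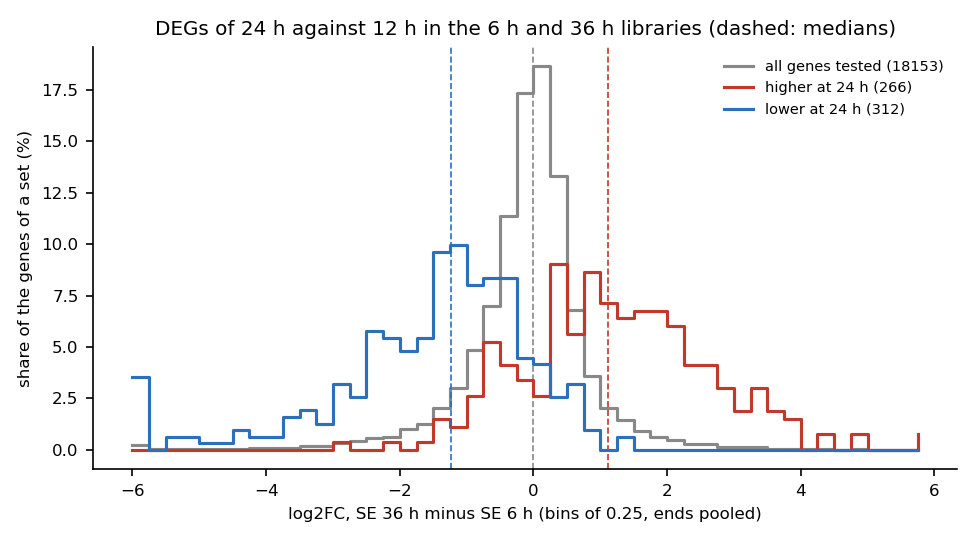
The share of genes in each bin of log2FC, SE 36 h minus SE 6 h, is drawn for the 266 genes higher at 24 h (red), the 312 lower at 24 h (blue) and all 18153 tested (grey), with dashed lines at the medians of 1.12, -1.23 and -0.01. The red and blue outlines lie on opposite sides of the grey one.

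The DEGs were also set against the 9 Ctr libraries. Of the 266 genes that rose, 158 (59.4%) lay above every Ctr library in all 3 libraries at 24 h, compared with 66 at 12 h, and 46 lay below every Ctr library at 12 h and 4 at 24 h. Of the 312 genes that fell, 106 (34.0%) lay above every Ctr library at 12 h and 14 did at 24 h, while 20 lay below every Ctr library at 12 h and 88 (28.2%) at 24 h. Over all genes tested, 13.6% lay above and 10.0% below every Ctr library at 24 h, and 14.4% above and 11.5% below at 12 h. Without SE 12 h replicate 1, 134 of 290 genes that rose (46.2%) lay above every Ctr library at 24 h and 96 below at 12 h, and of 382 that fell, 181 (47.4%) lay above at 12 h and 102 (26.7%) below at 24 h. The decreases held genes that returned towards Ctr levels as well as genes that went under them. The DEGs were selected on these same libraries, so shifts between 12 h and 24 h in these counts are partly built in.

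Among the 15 largest increases with a mean of at least 1 log2 CPM and no overlap between groups, Tm4sf1 stood out by its level. It encodes a tetraspan membrane protein found in endothelial and reactive cells, at chromosome 3:57193032-57209430 (GRCm39). The libraries at 12 h held 98.3, 41.5 and 81.6 CPM of Tm4sf1 and those at 24 h 823, 606 and 903 CPM, log2FC 3.4 ± 0.28, adjusted p = 2.85e-06. The groups lay far apart, and the Ctr libraries held 7.78 to 12.1 CPM. Klk6, a secreted serine protease of oligodendrocytes, was close to absent at 12 h and read 12.8, 13.1 and 21.6 CPM at 24 h (log2FC 3.94 ± 0.5, adjusted p = 0.000166). Its level was higher again at 36 h and 72 h, with means of 17.7 and 39.1 CPM. Atp13a4, a P5-type ATPase, went from 23.7, 13.2 and 21.3 CPM at 12 h to 79.3, 129 and 121 CPM at 24 h (log2FC 2.49 ± 0.23, adjusted p = 7.28e-06), and no library at 24 h came near one at 12 h. Slc16a3, the lactate and proton exporter MCT4, had 3.98, 5.93 and 5.497 CPM in the 12 h libraries and 35.8, 18.1 and 33.9 CPM in those at 24 h (log2FC 2.49 ± 0.41, adjusted p = 0.00133). Hmga2, a chromatin protein of proliferating and embryonic cells, and Fgfr4, a fibroblast growth factor receptor, rose from at most 1.43 and 2.79 CPM in a 12 h library to at least 5.20 and 8.84 CPM in a 24 h library (log2FC 3.49 ± 0.65, adjusted p = 0.00317; log2FC 3.42 ± 0.76, adjusted p = 0.011). Both were at or under 0.574 CPM in every Ctr library. The noncoding or little-described Fbxw23 (annotated as a transcribed pseudogene), Snx31 and G530011O06Rikx completed the list beside the inflammatory, interferon and matrix genes Ccl12, Cxcl10, Il11, Rsad2, Has2 and Tnc described under their groups, with log2FC of 4.19, 3.03 and 2.61. The calls of Tm4sf1, Klk6, Atp13a4, Slc16a3, Hmga2, Fgfr4, Fbxw23, Snx31 and G530011O06Rikx held whichever of the 6 libraries was left out. Leaving out 1 library moved some of these fold changes by over 1.5 times, to a log2FC of 4.21 for Hmga2 without SE 12 h replicate 3, 4.6 for Fgfr4 without SE 12 h replicate 3, 5.09 for Fbxw23 without SE 12 h replicate 1 and 3.58 for Fbxw23 without SE 12 h replicate 2.

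The 5 most abundant genes that rose were Serpina3n, Trf, Vim, Msn and Tm4sf1. Trf encodes transferrin, the iron carrier made by oligodendrocytes, and measured 399.9, 143 and 423 CPM at 12 h against 1079, 542 and 1327 CPM at 24 h (log2FC 1.6 ± 0.37, adjusted p = 0.0113). Within each group Trf ranked the libraries as the sums of the oligodendrocyte list did. These were 3174, 1836 and 4635 CPM at 12 h and 4941, 3360 and 7311 CPM at 24 h. The part of oligodendrocyte content in the change of Trf was not tested. Msn encodes moesin, which ties actin to the membrane, and read 327, 179.8 and 319.5 CPM at 12 h and 642, 521 and 714 CPM at 24 h (log2FC 1.19 ± 0.17, adjusted p = 0.000526). The lowest library at 24 h was above the highest at 12 h for both. The call of Trf held whichever of the 6 libraries was left out. The call of Msn was lost on leaving out replicate 2 of SE 12 h (log2FC 0.94, adjusted p = 0.00402).

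The 15 largest decreases were of another make. Edn1, which encodes the vasoconstrictor endothelin-1 of endothelium and reactive glia, went from 14.7, 12.6 and 28.8 CPM at 12 h to 0.425, 1.66 and 1.12 CPM at 24 h (log2FC -3.96 ± 0.67, adjusted p = 0.00146). Every library at 12 h lay above the Ctr range of 0 to 5.999 CPM and every library at 24 h lay within it. Slc2a2, the glucose transporter GLUT2, went from 2.19, 6.56 and 5.18 CPM to 0.319, 0.218 and 0.1401 CPM (log2FC -4.19 ± 0.67, adjusted p = 0.00105), and the noncoding Gm13630 had 21.9, 21.5 and 63.3 CPM in the 12 h libraries and 2.65, 2.31 and 3.43 CPM in those at 24 h (log2FC -3.73 ± 0.49, adjusted p = 0.000199). Tmco5 measured 12.9, 15.4 and 39.4 CPM at 12 h against 2.23, 2.003 and 3.503 CPM at 24 h (log2FC -3.01 ± 0.43, adjusted p = 0.000411), and its Ctr libraries did not exceed 1.87 CPM. Loxhd1, a stereocilia protein gene, and Fam187a followed the same course, with log2FC -2.79 ± 0.48, adjusted p = 0.00167 and log2FC -2.69 ± 0.5, adjusted p = 0.004. Fam187a lies within the same locus as Ccdc103, a dynein assembly factor (log2FC -2.73 ± 0.44, adjusted p = 0.0012), and reads that overlap both genes were lost in the counting. Slc25a34, a mitochondrial carrier, differed from these in being expressed in Ctr mice. Slc25a34 read 4.27, 10.9 and 12.9 CPM at 12 h and 0.956, 1.22 and 0 CPM at 24 h (log2FC -3.61 ± 0.56, adjusted p = 0.000833) against 6.63 to 12.2 CPM in Ctr. Ghsr, the ghrelin receptor, had a log2FC of -2.66, the histone gene H4c9 of -2.69, and the noncoding Gm50170 and Lncbate10 of -4.71 and -3.5. Col10a1, a collagen of cartilage, had the largest fitted decrease of the 15 through 1 library, at 0.746, 59.2 and 4.22 CPM at 12 h, of which replicate 2 was the highest. The calls of Edn1, Slc2a2, Gm13630, Tmco5, Loxhd1, Fam187a, Ccdc103, Slc25a34, H4c9 and Gm50170 held whichever of the 6 libraries was left out. Leaving out 1 library moved some of these fold changes by over 1.5 times, to a log2FC of -2.99 for Gm13630 without SE 12 h replicate 3, -2.17 for Loxhd1 without SE 12 h replicate 2, -1.97 for Ccdc103 without SE 12 h replicate 3, -4.49 for Slc25a34 without SE 24 h replicate 2 and -3.82 for Gm50170 without SE 12 h replicate 3. The call of Ghsr was lost on leaving out replicate 3 of SE 24 h (log2FC -2.2, adjusted p = 0.0599). Lncbate10 missed the threshold on leaving out replicate 3 of SE 12 h or replicate 1 or 3 of SE 24 h (log2FC -3.54 to -2.73, adjusted p up to 0.0932). Col10a1 missed the threshold on leaving out replicate 2 of SE 12 h (log2FC -3.03, adjusted p = 0.14).

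The most abundant genes that fell were neuronal and astrocytic. Ina, the neuronal intermediate filament internexin, went from 434, 614 and 879 CPM at 12 h to 171, 214 and 338 CPM at 24 h (log2FC -1.39 ± 0.24, adjusted p = 0.00193), and its Ctr range was 161 to 294 CPM. Arpp21, a neuronal phosphoprotein that binds RNA, had 516, 1312 and 1160 CPM in the 12 h libraries and 247, 318 and 528 CPM in those at 24 h (log2FC -1.42 ± 0.31, adjusted p = 0.00865), and 1 library at 24 h reached the lowest at 12 h. R3hdm1 measured 745, 708 and 1252 CPM at 12 h against 440.2, 374 and 515 CPM at 24 h (log2FC -1.01 ± 0.21, adjusted p = 0.00744). At 6 h the means of these 3 genes were 1097, 963 and 1182 CPM. Fam107a, a glucocorticoid-responsive actin regulator of astrocytes, read 428, 332 and 624 CPM at 12 h and 251, 279 and 160.4 CPM at 24 h (log2FC -1.0 ± 0.23, adjusted p = 0.0112), and here the 24 h libraries lay under the Ctr range of 361 to 654 CPM. Nefh, the heavy neurofilament subunit, which sensory neurons also make in large amounts, went from 602, 650.1 and 182 CPM at 12 h to 133, 112 and 162 CPM at 24 h (log2FC -1.82 ± 0.5, adjusted p = 0.0277), and Ctr libraries spread from 59.6 to 954 CPM. The calls of Ina and Arpp21 held whichever of the 6 libraries was left out. The call of R3hdm1 was lost on leaving out replicate 3 of SE 12 h or replicate 2 of SE 24 h (log2FC -0.91 to -0.71, adjusted p up to 0.0509). Fam107a missed the threshold on leaving out replicate 3 of SE 12 h or replicate 3 of SE 24 h (log2FC -0.8 to -0.72, adjusted p up to 0.0658). Nefh missed the threshold on leaving out replicate 1 or 2 of SE 12 h or replicate 1, 2 or 3 of SE 24 h (log2FC -1.95 to -1.4, adjusted p up to 0.1).

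**Figure D3:**
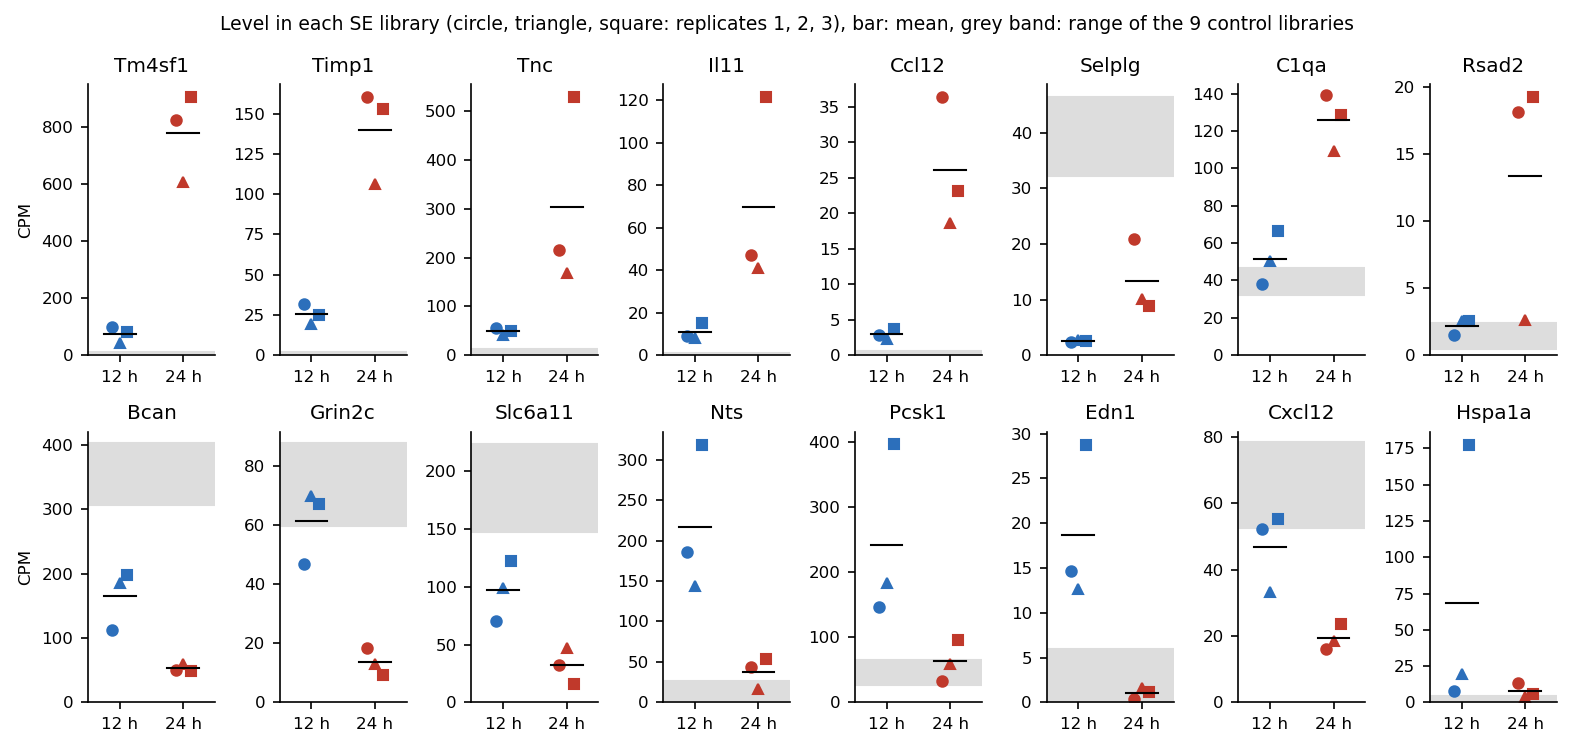
Each panel gives 1 gene in CPM, with the 3 libraries at SE 12 h (blue), the 3 at SE 24 h (red), a bar at each mean and a grey band over the range of the 9 Ctr libraries. Tm4sf1, Timp1, Tnc and Il11 moved further above the band, Selplg rose back towards it, Bcan, Slc6a11 and Cxcl12 were under it at 24 h, and Rsad2 and Hspa1a each show 1 library apart from its group.

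Reactive astrocyte genes held more increases than any other list by count. Of 24 tested, 8 rose and 1 fell (33.3% and 4.17%, against backgrounds of 1.47% and 1.72%), and the list's median log2FC was 0.57 against -0.01 over all genes. Without SE 12 h replicate 1, 9 rose and none fell. Timp1, the inhibitor of matrix metalloproteinases, had 31.8, 19.3 and 24.9 CPM in the 12 h libraries and 160.1, 107 and 153 CPM in those at 24 h (log2FC 2.48 ± 0.3, adjusted p = 0.000102), with a Ctr range of 0 to 2.05 CPM. Tnc, the matrix glycoprotein tenascin C, measured 55.6, 41.8 and 49 CPM at 12 h against 216, 169 and 528 CPM at 24 h (log2FC 2.64 ± 0.37, adjusted p = 0.000411). Emp1, a small membrane protein, read 57.6, 38.8 and 84.2 CPM at 12 h and 181, 157 and 517 CPM at 24 h (log2FC 2.23 ± 0.47, adjusted p = 0.00736). In both, SE 24 h replicate 3 was far above the other 2 libraries, and the groups did not overlap. The filament genes Vim (vimentin) and Nes (nestin) had log2FC 1.4 ± 0.26, adjusted p = 0.00261 and log2FC 1.4 ± 0.31, adjusted p = 0.00984, with Vim at 862, 722 and 979 CPM at 24 h and a mean of 2413 CPM at 72 h. Ptx3 (pentraxin 3, log2FC 1.77 ± 0.41, adjusted p = 0.0113), the secreted protease inhibitor Serpina3n (log2FC 1.18 ± 0.34, adjusted p = 0.0352) and the sphingosine 1-phosphate receptor gene S1pr3 (log2FC 1.15 ± 0.24, adjusted p = 0.00769) rose by less, and the metalloreductase Steap4 fell (log2FC -1.81 ± 0.54, adjusted p = 0.0431). Gfap, the defining filament of astrocytes, went from 3538, 2228 and 3666 CPM at 12 h to 4411, 3408 and 2809 CPM at 24 h (log2FC 0.17 ± 0.22, adjusted p = 0.674), so the groups overlapped, and both were above the Ctr range of 217 to 309 CPM. The hyaluronan receptor Cd44 had 207, 148 and 214 CPM in the 12 h libraries and 327, 367 and 459 CPM in those at 24 h (log2FC 0.99 ± 0.31, adjusted p = 0.0503). The calls of Timp1, Tnc, Emp1, Vim and Nes held whichever of the 6 libraries was left out. Leaving out 1 library moved some of these fold changes by over 1.5 times, to a log2FC of 1.96 for Tnc without SE 24 h replicate 3 and 1.48 for Emp1 without SE 24 h replicate 3. The call of Ptx3 was lost on leaving out replicate 3 of SE 24 h (log2FC 1.02, adjusted p = 0.0895). Serpina3n missed the threshold on leaving out replicate 2 of SE 12 h or replicate 1, 2 or 3 of SE 24 h (log2FC 0.83 to 1.24, adjusted p up to 0.147). S1pr3 missed the threshold on leaving out replicate 2 of SE 12 h (log2FC 0.84, adjusted p = 0.0426). Steap4 missed the threshold on leaving out replicate 1 or 3 of SE 12 h or replicate 1 or 3 of SE 24 h (log2FC -1.62 to -1.37, adjusted p up to 0.153).

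Matrix genes outside this list changed one by one, with 3 of 33 higher (9.09%), 1 lower (3.03%) and a median log2FC of -0.16. Over all genes tested 1.47% were higher and 1.72% lower. Has2, which makes hyaluronan, measured 5.87, 1.76 and 3.11 CPM at 12 h against 21.03, 18.2 and 29.99 CPM at 24 h (log2FC 2.68 ± 0.5, adjusted p = 0.00313). Mmp14, a membrane-bound metalloproteinase, read 14.2, 23.5 and 23.3 CPM at 12 h and 46.9, 50.2 and 48.5 CPM at 24 h (log2FC 1.27 ± 0.18, adjusted p = 0.000411). The decrease was in Bcan, which encodes brevican, the proteoglycan of the neural matrix that astrocytes make. The libraries at 12 h held 112, 186 and 197 CPM of Bcan and those at 24 h 50.3, 60.3 and 48.4 CPM, log2FC -1.63 ± 0.18, adjusted p = 3.86e-05. All 6 libraries lay under the Ctr range of 307 to 403 CPM, and those at 24 h were far lower than those at 12 h. The vessel-associated proteases Adamts1 and Adamts4, which cleave such proteoglycans, rose (log2FC 1.07 ± 0.3, adjusted p = 0.0308 and log2FC 1.47 ± 0.32, adjusted p = 0.00839), while the adhesion molecule Icam1 fell (log2FC -1.14 ± 0.34, adjusted p = 0.0411). These were the 3 DEGs among 28 endothelial and vessel genes (7.14% higher and 3.57% lower), with 1 higher and 2 lower without SE 12 h replicate 1. Counting without strand leaves the value of Adamts4 uncertain. The calls of Has2, Mmp14, Bcan and Adamts4 held whichever of the 6 libraries was left out. Leaving out 1 library moved some of these fold changes by over 1.5 times, to a log2FC of 3.29 for Has2 without SE 12 h replicate 1. The call of Adamts1 was lost on leaving out replicate 1 or 2 of SE 12 h or replicate 1 or 3 of SE 24 h (log2FC 0.9 to 1.11, adjusted p up to 0.109). Icam1 missed the threshold on leaving out replicate 2 or 3 of SE 12 h or replicate 1, 2 or 3 of SE 24 h (log2FC -1.32 to -0.78, adjusted p up to 0.196).

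Homeostatic astrocyte genes moved in both directions at the adjusted p, with decreases alone past the fold threshold in the edgeR test. Of 22 genes none rose and 3 fell (0% and 13.6%), 4 were higher and 9 lower at the adjusted p alone, and the median log2FC was -0.38. DESeq2 and limma-voom each called 1 higher, and without SE 12 h replicate 1 there were 1 higher and 5 lower. Slc6a11, the GABA transporter GAT3, went from 70.4, 99.1 and 122 CPM at 12 h to 32.8, 47.3 and 15.8 CPM at 24 h (log2FC -1.59 ± 0.28, adjusted p = 0.00198). Cldn10, a claudin, had 4.22, 10.1 and 10.6 CPM in the 12 h libraries and 2.97, 3.22 and 2.52 CPM in those at 24 h (log2FC -1.5 ± 0.25, adjusted p = 0.00152). All 6 libraries lay under the Ctr ranges of 148 to 224 CPM and 23.9 to 40.8 CPM. Gjb6, the gap junction protein connexin 30, was at the threshold (log2FC -1.0 ± 0.31, adjusted p = 0.0482). Grin2c, an NMDA receptor subunit that astrocytes also express, had the clearest decrease among the 22 glutamate receptor genes and the only call there (4.55%). The libraries at 12 h held 46.9, 70.04 and 67.2 CPM of Grin2c and those at 24 h 18.4, 13.02 and 9.18 CPM, log2FC -2.19 ± 0.26, adjusted p = 0.000102. The 12 h libraries reached the Ctr range of 59.7 to 87.7 CPM and the 24 h libraries lay under it. The GABA-A receptor genes Gabrg1 (log2FC -1.45 ± 0.29, adjusted p = 0.00568) and Gabrd (log2FC -1.53 ± 0.3, adjusted p = 0.00501) fell among 12 tested (16.7%). The water channel Aqp4 and the potassium channel Kcnj10, both of astrocyte endfeet, had log2FC of 0.95 and 0.79 with adjusted p = 0.0135 and 0.0212, below the fold threshold. The same held for the astrocyte transcription factor gene Sox9 (0.98, adjusted p = 0.0146) and the sphingosine 1-phosphate receptor gene S1pr1 (0.67, adjusted p = 0.0143), the other 2 that were higher at the adjusted p alone. The glutamate transporters Slc1a2 and Slc1a3 had -0.82 and -0.96 with adjusted p = 0.00103 and 0.00193. The calls of Slc6a11, Cldn10, Grin2c, Gabrg1 and Gabrd held whichever of the 6 libraries was left out. The call of Gjb6 was lost on leaving out replicate 2 or 3 of SE 12 h or replicate 1 or 3 of SE 24 h (log2FC -0.91 to -0.71, adjusted p up to 0.166).

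**Figure D4:**
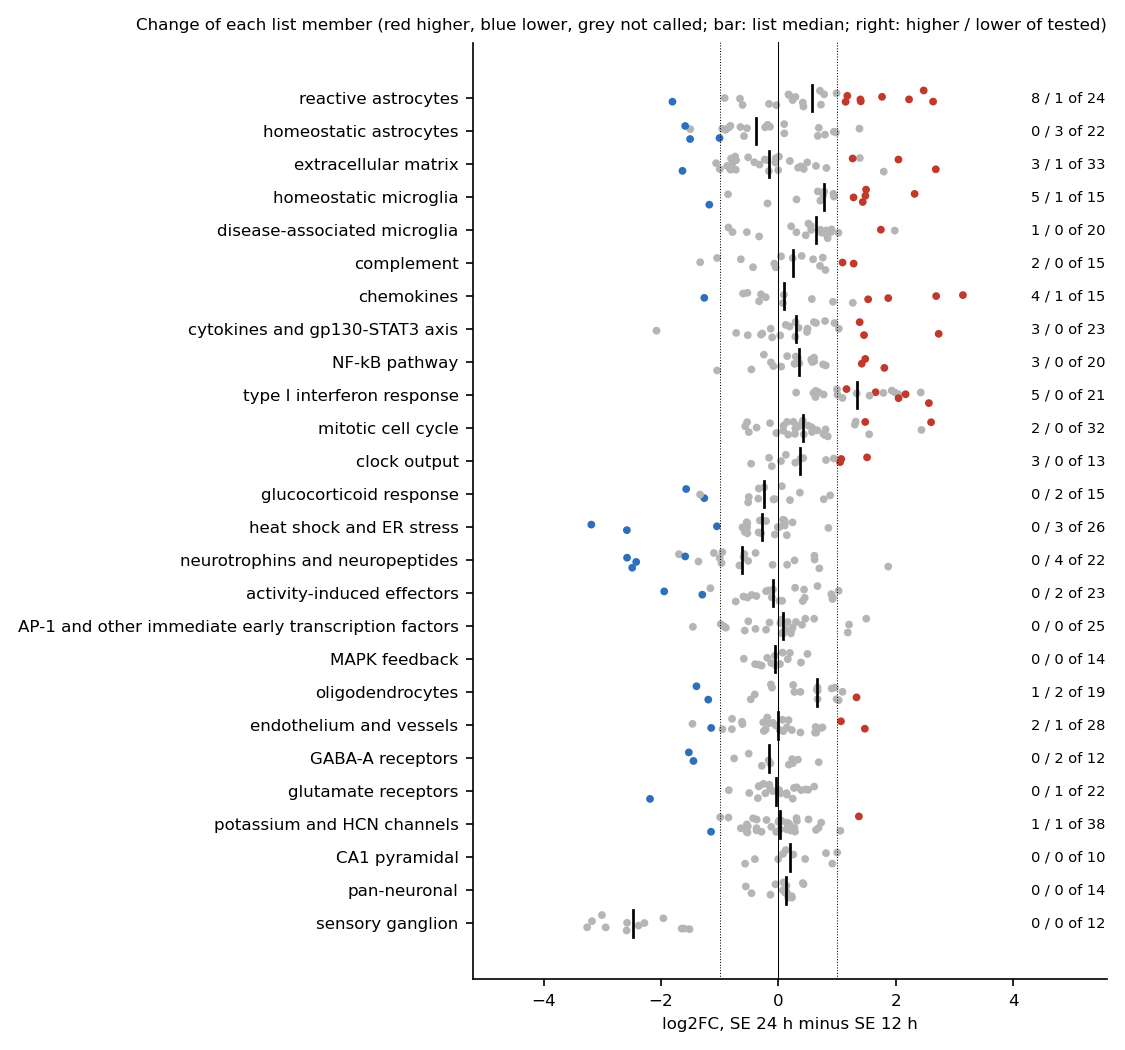
Each row is a gene list and each point a tested member at its log2FC, SE 24 h minus SE 12 h, in red where higher, blue where lower and grey where not called, with a bar at the list median and the counts at the right. Reactive astrocyte, homeostatic microglia and interferon genes lie mostly right of 0, the neuropeptides mostly left, the pan-neuronal genes close to 0, and the 12 sensory ganglion markers far left with no call.

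Genes of surveying microglia were next. Of 15 homeostatic microglia genes 5 rose and 1 fell (33.3% and 6.67%), with a median log2FC of 0.78. Selplg, the ligand of P-selectin, measured 2.39, 2.78 and 2.63 CPM at 12 h against 20.9, 10.02 and 8.898 CPM at 24 h (log2FC 2.32 ± 0.3, adjusted p = 0.000173). The 12 h libraries lay within a narrow range, the 24 h libraries did not overlap them, and all 6 were under the Ctr range of 32.1 to 46.5 CPM. Olfml3, a secreted protein, read 21.8, 14.7 and 26.8 CPM at 12 h and 61.8, 47.5 and 68.3 CPM at 24 h (log2FC 1.49 ± 0.23, adjusted p = 0.000808) and passed above the Ctr range of 13.4 to 39.2 CPM. The purinergic receptor gene P2ry13 and the lysophosphatidylserine receptor gene Gpr34 rose (log2FC 1.44 ± 0.26, adjusted p = 0.00263; log2FC 1.28 ± 0.28, adjusted p = 0.00846), as did Tmem119 (log2FC 1.48 ± 0.44, adjusted p = 0.0404), whose groups overlapped. Aif1, which encodes the microglial protein IBA1, went from 2.34, 3.02 and 1.11 CPM at 12 h to 7.86, 6.71 and 5.25 CPM at 24 h (log2FC 1.56 ± 0.34, adjusted p = 0.00889). Siglech, a sialic acid-binding lectin, fell (log2FC -1.18 ± 0.3, adjusted p = 0.02) and lay at 1.805, 2.003 and 3.01 CPM against a Ctr range of 14.01 to 22.3 CPM. P2ry12 and Cx3cr1, 2 defining receptors of surveying microglia, had log2FC of 0.94 and 0.72 with adjusted p = 0.0246 and 0.0192. Complement C1q followed: C1qa had 38.1, 50.6 and 66.5 CPM in the 12 h libraries and 139.5, 109.5 and 128 CPM in those at 24 h (log2FC 1.28 ± 0.17, adjusted p = 0.000228) and C1qc measured 35.6, 50.1 and 61.4 CPM at 12 h against 120.3, 88.2 and 105 CPM at 24 h (log2FC 1.09 ± 0.17, adjusted p = 0.000825), while C1qb had a log2FC of 0.8 and adjusted p = 0.00825, and C3 had 0.4 and 0.747. Of 20 genes of disease-associated microglia 1 (5%), the protease inhibitor Cst7, rose past both thresholds (log2FC 1.75 ± 0.43, adjusted p = 0.0174), and the list's median log2FC was 0.64. At the adjusted p alone 9 were higher and 1 lower. These included the tetraspanins Cd63 (0.9, adjusted p = 0.00184) and Cd9 (0.82, 0.00807), the lysosomal proteases Ctsd (0.89, 0.0016) and Ctsz (0.84, 0.00263), and, as the lower one, the lipid carrier Apoe (-0.85, 0.00763). Without SE 12 h replicate 1 there were 3 increases in this list, 4 in the homeostatic list and 1 in the complement list, which held 2 (13.3%). Of 18 leukocyte markers 8 were tested and none was called by edgeR, DESeq2 or limma-voom (0 at an unadjusted p under 0.05), with sums of 9.45 to 21.8 CPM in the 6 libraries and 3.88 to 35.6 CPM in Ctr. The highest means over the 6 libraries were those of the macrophage genes Mrc1, Lyve1 and Cd163, at 6.02, 4.58 and 2.56 CPM. Ccr2, S100a8 and S100a9 were close to the floor, at 0.292, 0.739 and 1.04 CPM, so these sums say little about infiltrating cells. The calls of Selplg, Olfml3, P2ry13, Aif1 and C1qa held whichever of the 6 libraries was left out. The call of Gpr34 was lost on leaving out replicate 1 of SE 24 h (log2FC 0.9, adjusted p = 0.056). Tmem119 missed the threshold on leaving out replicate 1 or 3 of SE 12 h or replicate 1 or 2 of SE 24 h (log2FC 1.16 to 1.49, adjusted p up to 0.158). Siglech missed the threshold on leaving out replicate 3 of SE 12 h or replicate 1 or 2 of SE 24 h (log2FC -1.07 to -0.93, adjusted p up to 0.0863). C1qc missed the threshold on leaving out replicate 1 of SE 12 h or replicate 1 of SE 24 h (log2FC 0.91 to 0.98, adjusted p up to 0.00622). Cst7 missed the threshold on leaving out replicate 3 of SE 12 h or replicate 1 of SE 24 h (log2FC 1.33 to 1.65, adjusted p up to 0.0848).

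**Figure D5:**
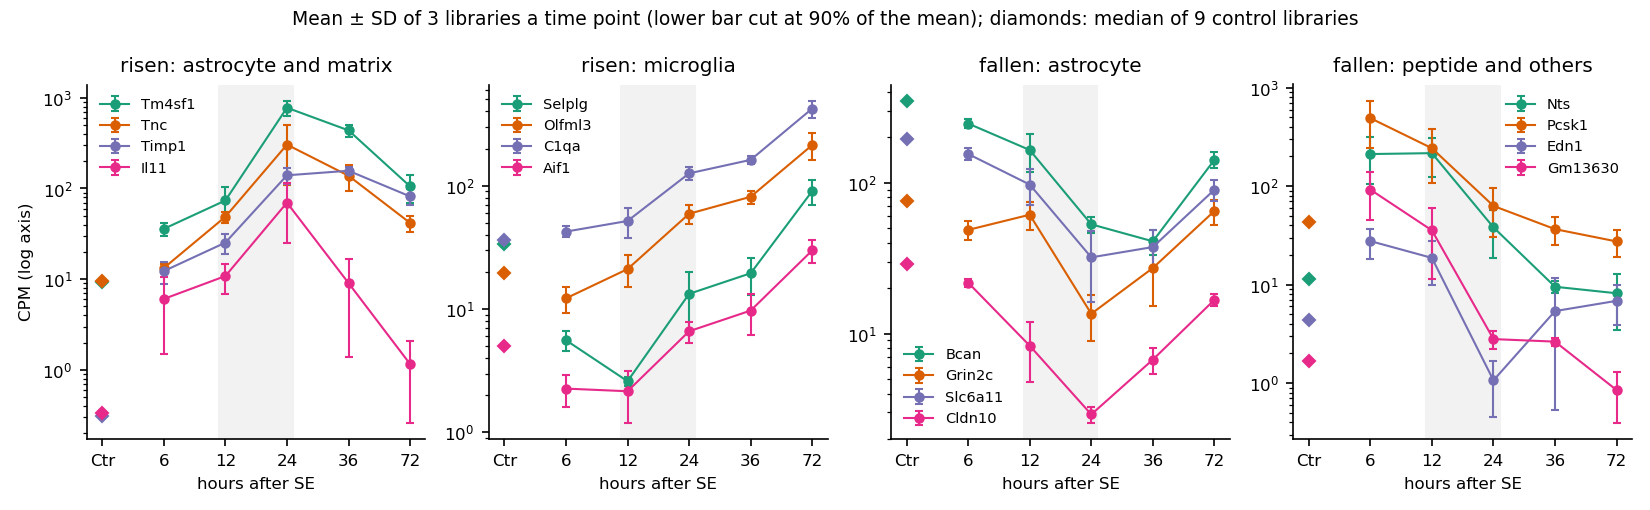
Points give the mean of 3 libraries in each of the SE groups, ordered by time (categories spaced evenly, log axis in CPM, bars SD) and diamonds the median of the 9 Ctr libraries. Tm4sf1, Tnc and Il11 were highest at 24 h, Bcan, Grin2c, Slc6a11 and Cldn10 were low at 24 h and 36 h, the microglial genes had their highest means at 72 h, and Nts, Pcsk1, Edn1 and Gm13630 were high at 6 h and 12 h.

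Chemokines moved in both directions. Of 15 tested 4 rose and 1 fell (26.7% and 6.67%), or 2 and 1 without SE 12 h replicate 1. Ccl12, a ligand of CCR2, read 2.88, 2.29 and 3.74 CPM at 12 h and 36.3, 18.6 and 23.2 CPM at 24 h (log2FC 3.15 ± 0.54, adjusted p = 0.00184), and its groups lay apart. Ccl7 and Ccl2, which bind the same receptor, had log2FC 1.87 ± 0.54, adjusted p = 0.0401 and log2FC 1.53 ± 0.45, adjusted p = 0.0378, and Ccl2 went from 7.31, 7.16 and 15.7 CPM to 31.1, 26.5 and 33.6 CPM. Cxcl10, an interferon-inducible ligand of CXCR3, went from 6.66, 1.82 and 3.82 CPM at 12 h to 47.04, 6.88 and 19.5 CPM at 24 h (log2FC 2.69 ± 0.56, adjusted p = 0.00807), with SE 24 h replicate 2 the lowest of the 3. Cxcl12, which endothelium and neurons make constitutively, had 52.1, 33.1 and 55.3 CPM in the 12 h libraries and 16.04, 18.6 and 23.6 CPM in those at 24 h (log2FC -1.26 ± 0.28, adjusted p = 0.00908), so that all 24 h libraries lay under the Ctr range of 52.5 to 78.4 CPM. Ccl3 and Ccl4, early chemokines of microglia, had log2FC of -0.3 and 0.09 with adjusted p = 0.743 and 0.91. Among 23 cytokine and gp130-STAT3 genes 3 rose (13%). Il11, a cytokine that signals through gp130, measured 9.19, 7.99 and 15.3 CPM at 12 h against 46.9, 41.1 and 121 CPM at 24 h (log2FC 2.73 ± 0.56, adjusted p = 0.00644) and was back to a mean of 9.06 CPM at 36 h. Clcf1, another gp130 ligand, had log2FC 1.46 ± 0.41, adjusted p = 0.0326 and Bcl3, a nuclear regulator of NF-kB, log2FC 1.39 ± 0.42, adjusted p = 0.0433. Il6, Lif and Il1b had log2FC of 0.8, 0.96 and 0.29 with adjusted p = 0.677, 0.1 and 0.848. In the NF-kB list 3 of 20 rose (15%, or 2 genes without SE 12 h replicate 1). They were the pattern receptor Tlr2 (from 8.05, 9.08 and 14.6 CPM to 41.5, 26.5 and 40.1 CPM, log2FC 1.81 ± 0.28, adjusted p = 0.000748), its co-receptor Cd14 (log2FC 1.42 ± 0.41, adjusted p = 0.0352) and the inhibitor Nfkbie (log2FC 1.48 ± 0.33, adjusted p = 0.00937). The NF-kB subunit genes Nfkb1, Rel and Rela had log2FC of 0.05, 0.33 and -0.13, with adjusted p = 0.872, 0.254 and 0.699. The calls of Ccl12, Cxcl10, Cxcl12, Il11 and Tlr2 held whichever of the 6 libraries was left out. Leaving out 1 library moved some of these fold changes by over 1.5 times, to a log2FC of 1.77 for Cxcl10 without SE 24 h replicate 1 and 2.04 for Il11 without SE 24 h replicate 3. The call of Ccl7 was lost on leaving out replicate 1, 2 or 3 of SE 12 h or replicate 1 or 3 of SE 24 h (log2FC 1.53 to 2.25, adjusted p up to 0.149). Ccl2 missed the threshold on leaving out replicate 1 or 2 of SE 12 h or replicate 1, 2 or 3 of SE 24 h (log2FC 1.29 to 1.63, adjusted p up to 0.142). Clcf1 missed the threshold on leaving out replicate 2 or 3 of SE 12 h or replicate 1 or 3 of SE 24 h (log2FC 1.21 to 1.52, adjusted p up to 0.104). Bcl3 missed the threshold on leaving out replicate 1, 2 or 3 of SE 12 h or replicate 1 or 3 of SE 24 h (log2FC 1.11 to 1.61, adjusted p up to 0.146). Cd14 missed the threshold on leaving out replicate 1 or 2 of SE 12 h or replicate 3 of SE 24 h (log2FC 0.69 to 1.34, adjusted p up to 0.252). Nfkbie missed the threshold on leaving out replicate 3 of SE 24 h (log2FC 1.11, adjusted p = 0.0528).

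The type I interferon response rested on 2 of the 3 libraries at 24 h. Of 21 genes 5 rose (23.8%), 21 had a positive log2FC and the median was 1.33. The list summed to 224, 203 and 216 CPM at 12 h and to 561, 260 and 436 CPM at 24 h, where SE 24 h replicate 2 was close to the 12 h libraries. Rsad2, the antiviral enzyme viperin, read 1.49, 2.55 and 2.55 CPM at 12 h and 18.2, 2.61 and 19.3 CPM at 24 h (log2FC 2.56 ± 0.67, adjusted p = 0.0228). Irf7, the transcription factor that amplifies the response, went from 2.09, 3.48 and 4.06 CPM at 12 h to 21.4, 4.36 and 16.5 CPM at 24 h (log2FC 2.17 ± 0.57, adjusted p = 0.0223), and overlaps Phrf1 on the other strand. Isg15, a ubiquitin-like modifier, had 2.19, 2.49 and 2.47 CPM in the 12 h libraries and 18.3, 2.31 and 9.53 CPM in those at 24 h (log2FC 2.05 ± 0.58, adjusted p = 0.0346). Ifit3 measured 12.2, 9.94 and 11.2 CPM at 12 h against 54.05, 8.49 and 43.7 CPM at 24 h (log2FC 1.66 ± 0.5, adjusted p = 0.0421). In these last 2 genes replicate 2 at 24 h overlapped the 12 h libraries. Ifit2 had log2FC 1.16 ± 0.33, adjusted p = 0.0314. Without SE 24 h replicate 2 there were 11 calls among the 21, without SE 12 h replicate 1 there were 2, without SE 12 h replicate 2 or 3 there was 1 each, and without SE 24 h replicate 1 or 3 there was 0. From SE 6 h to SE 36 h the list's median log2FC was 2.38. H2-T23, a nonclassical MHC class I gene and the only call among 14 antigen presentation genes (7.14%), read 4.42, 6.73 and 6.61 CPM at 12 h and 19.96, 8.75 and 21.2 CPM at 24 h (log2FC 1.48 ± 0.37, adjusted p = 0.0174), with the same library lowest at 24 h. The call of Rsad2 was lost on leaving out replicate 1, 2 or 3 of SE 12 h or replicate 1 or 3 of SE 24 h (log2FC 2.19 to 2.71, adjusted p up to 0.0773). Irf7 missed the threshold on leaving out replicate 1 or 2 of SE 12 h or replicate 1 or 3 of SE 24 h (log2FC 1.74 to 2.25, adjusted p up to 0.0978). Isg15 missed the threshold on leaving out replicate 1, 2 or 3 of SE 12 h or replicate 1 or 3 of SE 24 h (log2FC 1.31 to 2.08, adjusted p up to 0.203). Ifit3 missed the threshold on leaving out replicate 1, 2 or 3 of SE 12 h or replicate 1 or 3 of SE 24 h (log2FC 1.22 to 1.73, adjusted p up to 0.182). Ifit2 missed the threshold on leaving out replicate 2 or 3 of SE 12 h or replicate 1 or 3 of SE 24 h (log2FC 0.92 to 1.12, adjusted p up to 0.131). H2-T23 missed the threshold on leaving out replicate 1 of SE 12 h or replicate 1 or 3 of SE 24 h (log2FC 1.25 to 1.33, adjusted p up to 0.0673).

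Neuropeptide genes held 4 decreases. Of 22 neurotrophin and neuropeptide genes 4 fell and none rose with edgeR (18.2% lower), or 1 rose with limma-voom, and the median log2FC was -0.63. A positive log2FC was found in 6 of the 22, the largest in Trh, the thyrotropin-releasing hormone gene. Trh had 14.2, 8.65 and 7.17 CPM at 12 h and 19.65, 51.65 and 38.3 CPM at 24 h, without overlap (log2FC 1.87 ± 0.63, adjusted p = 0.067). Nts, the precursor of neurotensin, went from 186, 144 and 319 CPM at 12 h to 43.9, 16.6 and 54.02 CPM at 24 h (log2FC -2.49 ± 0.53, adjusted p = 0.00789). All libraries at 12 h lay far above the Ctr range of 3.29 to 26.2 CPM, and 1 at 24 h was inside it. Nts was also on a list of thalamic and subicular markers, where it was the only call among 8 (12.5%). Pdyn, the precursor of dynorphins, had 11.8, 78.7 and 66.4 CPM in the 12 h libraries and 7.01, 7.66 and 9.599 CPM in those at 24 h (log2FC -2.42 ± 0.61, adjusted p = 0.0189). Crh, the corticotropin-releasing hormone gene, measured 4.87, 13.3 and 15.7 CPM at 12 h against 2.76, 3.61 and 3.22 CPM at 24 h (log2FC -1.59 ± 0.38, adjusted p = 0.0141). Cartpt, the precursor of the CART peptide, was carried by SE 12 h replicate 2, the library that also held the most Nptx1. Cartpt read 3.48, 40.2 and 8.13 CPM at 12 h and 3.72, 2.92 and 2.31 CPM at 24 h (log2FC -2.58 ± 0.68, adjusted p = 0.0228). Bdnf, the activity-regulated neurotrophin, went from 158, 197 and 276 CPM at 12 h to 133, 134 and 494 CPM at 24 h (log2FC 0.28 ± 0.47, adjusted p = 0.756). Pcsk1, the convertase that cleaves neuropeptide precursors, had 147, 184 and 398 CPM in the 12 h libraries and 32.7, 59.4 and 96.8 CPM in those at 24 h (log2FC -1.94 ± 0.43, adjusted p = 0.00965). Plk3, a kinase, measured 36.5, 59.3 and 52.9 CPM at 12 h against 19.4, 17.9 and 22.4 CPM at 24 h (log2FC -1.3 ± 0.3, adjusted p = 0.0127). These were the 2 DEGs among 23 activity-induced effectors (8.7% lower). Plk3 overlaps Dynlt4 on the other strand. The calls of Nts and Plk3 held whichever of the 6 libraries was left out. The call of Pdyn was lost on leaving out replicate 2 or 3 of SE 12 h or replicate 1 or 2 of SE 24 h (log2FC -2.39 to -1.97, adjusted p up to 0.0834). Crh missed the threshold on leaving out replicate 2 or 3 of SE 12 h or replicate 1 of SE 24 h (log2FC -1.51 to -1.27, adjusted p up to 0.0892). Cartpt missed the threshold on leaving out replicate 2 of SE 12 h or replicate 1, 2 or 3 of SE 24 h (log2FC -2.75 to -0.99, adjusted p up to 0.303). Pcsk1 missed the threshold on leaving out replicate 3 of SE 12 h (log2FC -1.39, adjusted p = 0.0552).

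Immediate early transcription factors showed no called change. None of 25 was called in either direction by edgeR, DESeq2 or limma-voom (4 had an unadjusted p under 0.05, and 1 was lower without SE 12 h replicate 1), with 16 log2FC above 0 and a median of 0.09, and none of 14 genes of MAPK feedback was called by any of the 3 (0 at an unadjusted p under 0.05), with a median of -0.05. Fos read 106, 149 and 262 CPM at 12 h and 227, 118 and 822 CPM at 24 h (log2FC 1.2 ± 0.58, adjusted p = 0.207), and SE 24 h replicate 3 was the highest. Npas4 went from 61.5, 93.9 and 220.4 CPM at 12 h to 158, 49.7 and 830.5 CPM at 24 h (log2FC 1.5 ± 0.77, adjusted p = 0.239). Nr4a3 had 77.1, 64.5 and 307 CPM in the 12 h libraries and 35.1, 71.4 and 55.4 CPM in those at 24 h (log2FC -1.46 ± 0.63, adjusted p = 0.158). Arc, an effector that regulates AMPA receptor trafficking, measured 636, 785 and 1486 CPM at 12 h against 567, 344 and 2082 CPM at 24 h (log2FC 0.07 ± 0.5, adjusted p = 0.955). The list summed to 2296, 2711 and 5370 CPM at 12 h and to 3081, 2026 and 6892 CPM at 24 h, against 805 to 1691 CPM in Ctr, so that all 6 libraries lay above every Ctr library and the groups overlapped. A p that misses the threshold at 3 libraries a group does not show that these genes were level. None of 14 pan-neuronal genes was called either by these tools (1 at an unadjusted p under 0.05), and their sums of 10730 to 13060 CPM in the 6 libraries lay under the 14450 to 21640 CPM of Ctr.

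A promoter is shown for each of 5 of these genes, chosen because the factors that bind AP-1 and CRE elements are the products or targets of the immediate early response. Sequences were taken from RefSeq (GRCm38.p6) and give the 150 bases before the start, 5′ to 3′ on the gene's strand, with the motif in capitals. AP-1 was searched as TGACTCA and the cAMP response element (CRE) as TGACGTCA, on both strands, with TGAGTCA as the other strand of the first. The first 3 genes rose and the last 2 fell. Il11 and Emp1 each have a second annotated start, whose 150 bases hold neither motif and are not printed, so the promoter shown was picked for its motif.
Il11, chr7:4778142-4778291, minus strand: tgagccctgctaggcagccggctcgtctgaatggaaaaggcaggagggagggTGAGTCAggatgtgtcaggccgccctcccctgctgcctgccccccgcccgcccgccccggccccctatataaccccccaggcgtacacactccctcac
Cxcl10, chr5:92348890-92349039, minus strand: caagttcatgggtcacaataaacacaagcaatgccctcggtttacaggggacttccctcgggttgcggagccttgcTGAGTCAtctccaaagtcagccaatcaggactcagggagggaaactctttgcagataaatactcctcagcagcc
Emp1, chr6:135362781-135362930, plus strand: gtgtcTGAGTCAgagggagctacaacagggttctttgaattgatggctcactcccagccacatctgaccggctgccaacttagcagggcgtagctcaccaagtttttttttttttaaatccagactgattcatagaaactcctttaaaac
Pcsk1, chr13:75089707-75089856, plus strand: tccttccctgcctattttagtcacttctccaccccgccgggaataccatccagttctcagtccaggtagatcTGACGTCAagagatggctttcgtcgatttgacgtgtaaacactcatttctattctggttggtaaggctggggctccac
Cartpt, chr13:99900684-99900833, minus strand: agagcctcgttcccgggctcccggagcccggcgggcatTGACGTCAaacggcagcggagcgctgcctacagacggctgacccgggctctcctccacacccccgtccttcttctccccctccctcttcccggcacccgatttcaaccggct
The AP-1 element of Il11 began at base -98 from the start, that of Cxcl10 at -74 and that of Emp1 at -145, and the CRE of Pcsk1 began at -78 and that of Cartpt at -112. Promoters of 300 bases, 250 before to 50 after a start, were matched by symbol for 12763 of the genes tested, 184 of those that rose and 209 of those that fell, and some genes had several. AP-1 was in 6.38% of 235 promoters of genes that rose, 6.80% of 250 of genes that fell and 3.98% of 16282 of all genes tested. CRE was in 0.851%, 2.8% and 2.7%, the canonical E-box CACGTG in 7.66%, 8.80% and 9.14%, and the GAS element (TTCCNGGAA) in 2.13%, 2.00% and 1.19%. The D-box TTACGTAA was in 1.28%, 0% and 0.147%, the 1.28% being 3 promoters of the single gene Ak4. The searched forms of the kB site and of the serum response element were in none of the promoters of DEGs and in 0.190% and 0.0246% of those of all genes tested. These shares are descriptions and were not tested, and a match is not a bound site.

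A few clock genes were higher at 24 h. Of 13 genes driven by CLOCK and BMAL1, 3 rose (23.1%) and the median log2FC was 0.38, and none of 8 antiphase genes, Bmal1 included (log2FC -0.31 ± 0.18, adjusted p = 0.308), was called by edgeR, DESeq2 or limma-voom (2 at an unadjusted p under 0.05). Dbp, a transcription factor of the D-box, read 4.17, 3.75 and 1.91 CPM at 12 h and 8.81, 14.02 and 5.67 CPM at 24 h (log2FC 1.51 ± 0.33, adjusted p = 0.00825), and all 6 libraries lay under the Ctr range of 26.8 to 59.2 CPM. Nr1d1, which encodes the repressor REV-ERBa and overlaps Thra on the other strand, went from 46.8, 42.2 and 61.6 CPM at 12 h to 113, 94.7 and 107 CPM at 24 h (log2FC 1.07 ± 0.16, adjusted p = 0.000526), and passed from under the Ctr range of 70.6 to 121 CPM at 12 h into it at 24 h. Hlf had 28.9, 30.8 and 41.4 CPM in the 12 h libraries and 38.4, 89.1 and 78.97 CPM in those at 24 h (log2FC 1.05 ± 0.27, adjusted p = 0.0215), with 1 library at 24 h among those at 12 h. Dbp overlaps Sphk2 on the other strand. Tested against the change of the saline mice, from the mean of Ctr 12 h and Ctr 36 h to Ctr 72 h, the difference was 1.96 for Dbp (adjusted p = 0.0138), 1.13 for Nr1d1 (0.0071) and 1.24 for Hlf (0.0491). Without Ctr 72 h replicate 2 the last 2 calls were lost, at 0.93 for Nr1d1 (0.032), under the fold threshold, and 1.03 for Hlf (0.191). Over all genes 576 (3.17%) were called in this test. The call of Dbp was lost on leaving out replicate 2 of SE 24 h (log2FC 1.08, adjusted p = 0.053). Nr1d1 missed the threshold on leaving out replicate 2 of SE 12 h (log2FC 0.97, adjusted p = 0.00361). Hlf missed the threshold on leaving out replicate 1 or 2 of SE 12 h or replicate 2 or 3 of SE 24 h (log2FC 0.82 to 1.0, adjusted p up to 0.0888).

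Glucocorticoid-responsive and heat shock genes held 5 decreases and no increase. Decreases made up 13.3% of 15 and 11.5% of 26 genes, against 1.72% of all genes tested. Tsc22d3 (GILZ) measured 78.5, 86.3 and 131 CPM at 12 h against 27.3, 45.8 and 26.7 CPM at 24 h (log2FC -1.57 ± 0.4, adjusted p = 0.0191). Pdk4, a kinase that restrains pyruvate oxidation, read 20.4, 20.3 and 32.6 CPM at 12 h and 9.88, 10.4 and 9.95 CPM at 24 h (log2FC -1.26 ± 0.23, adjusted p = 0.00237). They were the 2 calls among 15 genes, and in both the 24 h libraries lay under every Ctr library. Fkbp5 and Sgk1, classical targets of the receptor, had log2FC of -0.24 and 0.37 with adjusted p = 0.573 and 0.453. Of 26 heat shock and ER stress genes 3 fell, and all 3 were highest in SE 12 h replicate 3. The chaperone genes Hspa1a, Hspa1b and Dnajb1 read 8.002, 19.8 and 178, 17.7, 54.96 and 414 and 72.1, 90.8 and 237 CPM in the 3 libraries at 12 h, with log2FC -3.19 ± 0.76, adjusted p = 0.0137 for Hspa1a, log2FC -2.58 ± 0.78, adjusted p = 0.0432 for Hspa1b and log2FC -1.05 ± 0.31, adjusted p = 0.0395 for Dnajb1. Hspa1a and Hspa1b are near-identical copies, and reads that fit both can be lost. The call of Pdk4 held whichever of the 6 libraries was left out. The call of Tsc22d3 was lost on leaving out replicate 3 of SE 12 h or replicate 1 or 3 of SE 24 h (log2FC -1.45 to -1.31, adjusted p up to 0.0777). Hspa1a missed the threshold on leaving out replicate 3 of SE 12 h or replicate 2 or 3 of SE 24 h (log2FC -3.04 to -0.9, adjusted p up to 0.273). Hspa1b missed the threshold on leaving out replicate 3 of SE 12 h or replicate 1, 2 or 3 of SE 24 h (log2FC -3.14 to -0.44, adjusted p up to 0.695). Dnajb1 missed the threshold on leaving out replicate 3 of SE 12 h or replicate 1, 2 or 3 of SE 24 h (log2FC -1.11 to -0.34, adjusted p up to 0.352).

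The other lists held few calls each, and over all genes tested 1.47% were higher and 1.72% lower. In the oligodendrocyte lineage Gpr17, a receptor of committed precursors, went from 17.99, 47.1 and 48.4 CPM at 12 h to 10.4, 10.9 and 20.4 CPM at 24 h (log2FC -1.4 ± 0.31, adjusted p = 0.00929), Cmtm5 fell (log2FC -1.19 ± 0.27, adjusted p = 0.0109) and Ermn, a cytoskeletal protein of mature myelinating cells, rose (log2FC 1.33 ± 0.4, adjusted p = 0.0439), out of 19 genes. Of these, 13 had a positive log2FC, 9 had an unadjusted p under 0.05 and the median log2FC was 0.66, with list sums of 3174, 1836 and 4635 CPM at 12 h and 4941, 3360 and 7311 CPM at 24 h, which overlapped. Without SE 12 h replicate 1 the increase was lost. Gpr17 and Ermn overlap Lims2 and Galnt5 on the other strand. Of 38 potassium and HCN channel genes Kcnn2, the SK2 channel, had 21.1, 17.6 and 25.6 CPM in the 12 h libraries and 67.6, 38.5 and 59.98 CPM in those at 24 h (log2FC 1.37 ± 0.29, adjusted p = 0.00724) and overlaps A330093E20Rik on the other strand, and Kcnh1, the channel EAG1, fell (log2FC -1.15 ± 0.3, adjusted p = 0.0209). At 2.63% in each direction, this list lay near the shares over all genes. None of 27 sodium and calcium channel genes was called by edgeR (9 at an unadjusted p under 0.05, 1 by DESeq2), with a median log2FC of -0.03. Chrm2, the muscarinic M2 receptor, measured 5.27, 1.96 and 3.82 CPM at 12 h against 5.73, 9.93 and 8.97 CPM at 24 h (log2FC 1.2 ± 0.32, adjusted p = 0.0229), the only call among 12 cholinergic receptor genes (8.33%). Tmem100, a membrane protein of endothelium and other cells, read 34.2, 31.03 and 37.9 CPM at 12 h and 14.1, 13.7 and 10.2 CPM at 24 h (log2FC -1.45 ± 0.17, adjusted p = 9.73e-05), with the groups far apart. Of 32 mitotic genes 2 rose (6.25%), the spindle factor Tpx2 (from 2.58, 2.35 and 2.47 CPM to 8.92, 4.96 and 7.15 CPM, log2FC 1.48 ± 0.3, adjusted p = 0.00623) and the checkpoint kinase Bub1 (log2FC 2.6 ± 0.71, adjusted p = 0.0281). Of the 32, 26 had a positive log2FC, 10 had an unadjusted p under 0.05 and the median was 0.43, and without SE 12 h replicate 1 there were 3 increases. The meningeal marker Dcn, decorin, fell (log2FC -1.48 ± 0.4, adjusted p = 0.0266), and the meningeal list summed to 156 to 252 CPM at 12 h and to 63.9 to 173 CPM at 24 h. None of 14 interneuron, 9 dentate granule cell, 9 CA3 and CA2, 6 choroid plexus, 6 blood, 8 metallothionein and zinc or 22 cholesterol synthesis genes was called by edgeR, with 4, 4, 2, 2, 1, 3 and 5 at an unadjusted p under 0.05. DESeq2 called 1 CA3 and CA2 gene, 1 metallothionein and zinc gene and 1 cholesterol gene, and limma-voom 1 cholesterol gene. Without SE 12 h replicate 1, 1 interneuron, 1 cholesterol synthesis and 1 cholinergic receptor gene were called lower, and 1 sodium or calcium channel gene in each direction. Of 43 tested genes that the text of the study names, 5 rose (11.6%, or 2 genes without SE 12 h replicate 1) and 2 fell (4.65%), all described above under their groups. The calls of Gpr17, Kcnn2, Tmem100 and Tpx2 held whichever of the 6 libraries was left out. The call of Cmtm5 was lost on leaving out replicate 3 of SE 12 h or replicate 2 of SE 24 h (log2FC -0.93 to -0.93, adjusted p up to 0.0544). Ermn missed the threshold on leaving out replicate 1, 2 or 3 of SE 12 h or replicate 1 or 3 of SE 24 h (log2FC 0.97 to 1.58, adjusted p up to 0.171). Kcnh1 missed the threshold on leaving out replicate 2 of SE 12 h or replicate 2 or 3 of SE 24 h (log2FC -1.13 to -0.73, adjusted p up to 0.121). Chrm2 missed the threshold on leaving out replicate 2 or 3 of SE 12 h or replicate 2 or 3 of SE 24 h (log2FC 0.86 to 1.25, adjusted p up to 0.114). Bub1 missed the threshold on leaving out replicate 1 or 3 of SE 12 h or replicate 1 of SE 24 h (log2FC 2.28 to 2.43, adjusted p up to 0.0777). Dcn missed the threshold on leaving out replicate 1 or 3 of SE 12 h or replicate 1 or 3 of SE 24 h (log2FC -1.43 to -1.22, adjusted p up to 0.101).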

How the data were processed

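Poly(A) mRNA, purified from total RNA of microdissected CA1, was sequenced in 24 mice, of which the 6 at SE 12 h and SE 24 h were compared here. The deposited values are raw read counts by gene, produced by the authors with Trim Galore 0.6.6, STAR 2.7.8a on GRCm39 with GENCODE M26, SAMtools 1.10 and htseq-count 0.13.5 without strand, with the sequencing lanes of a library merged. Reads that overlap 2 genes were dropped in that counting, and a gene and its antisense partner cannot be told apart. Symbols and positions came from GENCODE M39 on GRCm39, which matched 18552 of 18647 genes.

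Genes were kept with edgeR's filterByExpr over the 8 groups, scaled by TMM, and tested with edgeR 4.0.16 (R 4.3.3) quasi-likelihood fits over all 24 libraries, with 1 factor of unwanted variation (RUVr, after the study's methods) as a covariate. This factor was mainly Ctr 72 h replicate 2. P-values were adjusted over all genes tested by Benjamini-Hochberg. Values after ± are standard errors of a log2FC. On simulated counts of this comparison with 18153 genes, 200 of them changed by 1.5 on the log2 scale, 86.5% of the changed genes were called. The changed genes were drawn only from those with a mean of at least 1 log2 CPM, so recovery of lower genes was not measured. Counts were drawn from the means and spread of the fit itself, and 8 unchanged genes were also called. P-values of the main fit rest on the spread within groups over all 24 libraries, not on SE 12 h and SE 24 h alone. Each group had 3 libraries, each from 1 mouse as far as the labels say. Levels in CPM are not corrected for gene length. Genes named were the 15 largest increases and 15 largest decreases (DEGs with a mean of at least 1 log2 CPM and no overlap between groups), the 5 most abundant DEGs in each direction, and members of 41 gene lists and of the study's text. A few of these genes are not reported here. The comparison and the lists were chosen with earlier results of these data known. Alternatives were DESeq2 1.42.0, limma-voom 3.58.1, other scalings and filters, other covariates, a replicate block, thinning and leaving out libraries. Leaving out each Ctr 72 h library, or both libraries with sensory ganglion transcripts, was added after the data were seen.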

Additional observations from a re-analysis of the deposited data

Results flagged for a closer look

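For 6 clock genes the change from SE 12 h to SE 24 h differed from the change of the saline mice, from the mean of Ctr 12 h and Ctr 36 h to Ctr 72 h, in the edgeR test of the difference itself, Benjamini-Hochberg adjusted over all genes tested. The difference in log2FC was 1.96 for Dbp (adjusted p = 0.0138), 1.71 for Per3 (0.00162), 1.3 for Per2 (0.0356), 1.24 for Hlf (0.0491), 1.13 for Nr1d1 (0.0071) and 1.06 for Nr1d2 (0.015). In Per3 and Per2 it came from both sides, with 0.81 and 0.38 after SE against -0.90 and -0.92 in saline, whereas in Nr1d1 and Nr1d2 saline moved by -0.05 and -0.11 against 1.07 and 0.94 after SE. Without Ctr 72 h replicate 2 the difference was 1.75 for Dbp (adjusted p = 0.0315), 1.67 for Per3 and 1.03 for Nr1d2 (0.0334), and the calls of Hlf (1.03, 0.191), Per2 (0.79, 0.246) and Nr1d1 (0.93, 0.032) were lost. The hour of collection of the groups was not known. Ctr 72 h was also shallow, with total counts from 2663936 to 11680209. The parts of the hour and of this depth in these differences were not tested.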

How the results depend on the processing

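The 578 DEGs (266 higher, 312 lower) became 102 (70 and 32) when only the 6 libraries were fitted, 993 (536 higher) at an absolute log2FC of 0.66 and 1648 (951 and 697) at the adjusted p alone. Decreases numbered 196 without the RUVr factor, and increases 162 with the range of the label numbers in its place. DESeq2 called 767 and limma-voom 640, and 553 and 478 of these were among the 578. The 73 DEGs on any gene list became 24 with the 6 libraries alone. Leaving out 1 library gave 386 to 672 DEGs, 182 to 304 higher, 175 to 382 lower and 48 to 80 on the lists. The lowest were 175 decreases without SE 12 h replicate 3, and 193 decreases and 48 list genes without SE 24 h replicate 1. The 576 genes whose change differed from that of saline became 280 without the RUVr factor, 257 with limma-voom, 324 with the label number range, 349 without SE 24 h replicate 1, and 210 to 1218 without 1 Ctr library, with replicate 2 of Ctr 72 h left out for the lower end and replicate 1 for the upper. The causes were not tested beyond these settings. For 138 named genes under the alternatives, 318 fits lost a call, 33 gained one, and no call changed direction. The replicate block gave 590 DEGs, 539 of them among the 578. Whether replicate numbers pair the samples was not settled. For replicates 1, 2 and 3 of SE 12 h the correlations of same-numbered deviations were -0.011, 0.189 and 0.064. The highest with another number were 0.072, -0.031 and 0.042, so replicate 1 alone correlated best with another number. Depth limits low genes: 158 of the genes that fell and 89 of those that rose had a mean under 5 CPM, and thinning to the smallest total left 460 of the 578.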
